A study of Mus musculus with 12 samples.

Results

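The tRNA genes of mouse chromosome 6, most of them copies of the gene for cysteine tRNA, were followed across chromatin immunoprecipitation with sequencing (ChIP-seq) libraries from liver. The deposited files list coverage over the same 532 stretches of the genome. Most are drawn around genes of the kind that RNA polymerase III (Pol III) transcribes. Of the 446 stretches that are 360 to 439 bp long, 376 held a predicted tRNA gene. Members were all stretches on chromosome 6 that are 360 to 439 bp long, outside an interval that holds annotated Y RNA genes (chr6:47730358-47731874). This gave 55 of the 65 stretches on chromosome 6. By sequence, 48 members hold a predicted tRNA-Cys (GCA) gene, and 1 each a tRNA-Arg (CCT), tRNA-Gly (CCC), tRNA-Pro (AGG) and tRNA-Val (CAC) gene. The other 3 members held no cloverleaf that met the rule used here. Of those, 1 is an annotated Y RNA gene just outside the interval, so the set is not made of tRNA genes alone.

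The livers came from male C57/BL6 mice, 12 to 14 weeks old, without any genetic change named in the labels. Housing was for 2 weeks, and the light cycle was 12 h of light and 12 h of dark. The mice had food from Zeitgeber time 12 to 24 h for 7 days. Of the mice, 5 were killed at Zeitgeber time 2 h and 5 at 26 h, the later time serving as biological replicate. The libraries form 6 groups of 2: RPC1 and RPC4 (subunits of Pol III), RPB2 (part of RNA polymerase II, Pol II), libraries titled H3K4, libraries titled H3K36, and input chromatin. Titles and antibody fields of the histone libraries name opposite marks (H3K36me3 is the antibody entered for H3K4-titled libraries, and the reverse), so they are named here by title. The labels do not say which replicate number came from which time or how many livers entered a library, so p-values measure only the spread between libraries.

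Transfer RNA genes carry their promoter inside the transcribed sequence. The factor TFIIIC binds the A box, near the start of the gene, and the B box, near its end, and helps to place TFIIIB upstream, which brings in Pol III. Pol III stops at a short run of T in the coding strand after the gene. Y RNA genes, whose small RNAs bind the Ro60 protein, use a promoter that lies upstream of the gene instead.

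The tRNA genes of the 4 members that carried high Pol III are shown first, 5′ to 3′, because the rest of the account turns on them. Capitals mark the A box and then the B box. All sequences are from the mm9 (NCBIM37) reference.
tRNA-Arg (CCT), chr6:38483931-38484003, plus strand: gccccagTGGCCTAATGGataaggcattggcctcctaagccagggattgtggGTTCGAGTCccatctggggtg
tRNA-Gly (CCC), chr6:86353887-86353957, plus strand: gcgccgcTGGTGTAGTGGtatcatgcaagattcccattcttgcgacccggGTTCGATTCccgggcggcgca
tRNA-Cys (GCA), chr6:47928996-47929067, plus strand: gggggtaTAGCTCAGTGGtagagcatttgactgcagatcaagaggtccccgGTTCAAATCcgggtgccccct
tRNA-Pro (AGG), chr6:29338824-29338895, plus strand: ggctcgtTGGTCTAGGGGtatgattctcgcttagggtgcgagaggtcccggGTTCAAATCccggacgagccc

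Next to them stand 2 tRNA-Cys genes with little Pol III, with the bases that differ from the loaded tRNA-Cys gene in capitals. The first differs at 1 base only, and the second has the sequence that is commonest among the near-empty copies.
near-empty copy with 1 difference, chr6:48159837-48159908, minus strand: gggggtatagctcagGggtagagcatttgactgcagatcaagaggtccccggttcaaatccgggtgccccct
near-empty copy of the commonest sequence, chr6:48221925-48221996, plus strand: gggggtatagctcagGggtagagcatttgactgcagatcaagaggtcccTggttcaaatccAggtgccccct

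Pol III lay on few of the 55 members. Coverage is the number of reads over a base, and each value is its mean along the stretch, as deposited and not scaled for depth. Averaged over the 4 Pol III libraries, 5 members had at least 10 reads per base and are called loaded, 50 had under 3 and are called near-empty, and 0 lay between. Those thresholds describe the members and carry no test. The loaded members ran from 24.8 to 129 reads per base, and the near-empty members from 0.448 to 2.28, with a median of 1.02. The median over all 532 stretches was 15.2. In each of the 4 Pol III libraries the lowest loaded member lay above the highest near-empty member, at 23.1 against 3.12 and 11.8 against 2.31 in the RPC1 libraries, and 33.3 against 2.75 and 25.1 against 3.64 in the RPC4 libraries. The loaded members held 86.1% and 84.4% of the members' coverage in the RPC1 libraries and 87.7% and 87.1% in the RPC4 libraries, against 9.65% and 6.36% in input. In whole liver, a gene bound in few cells cannot be told apart from a gene bound weakly in many.

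**Figure D1:**
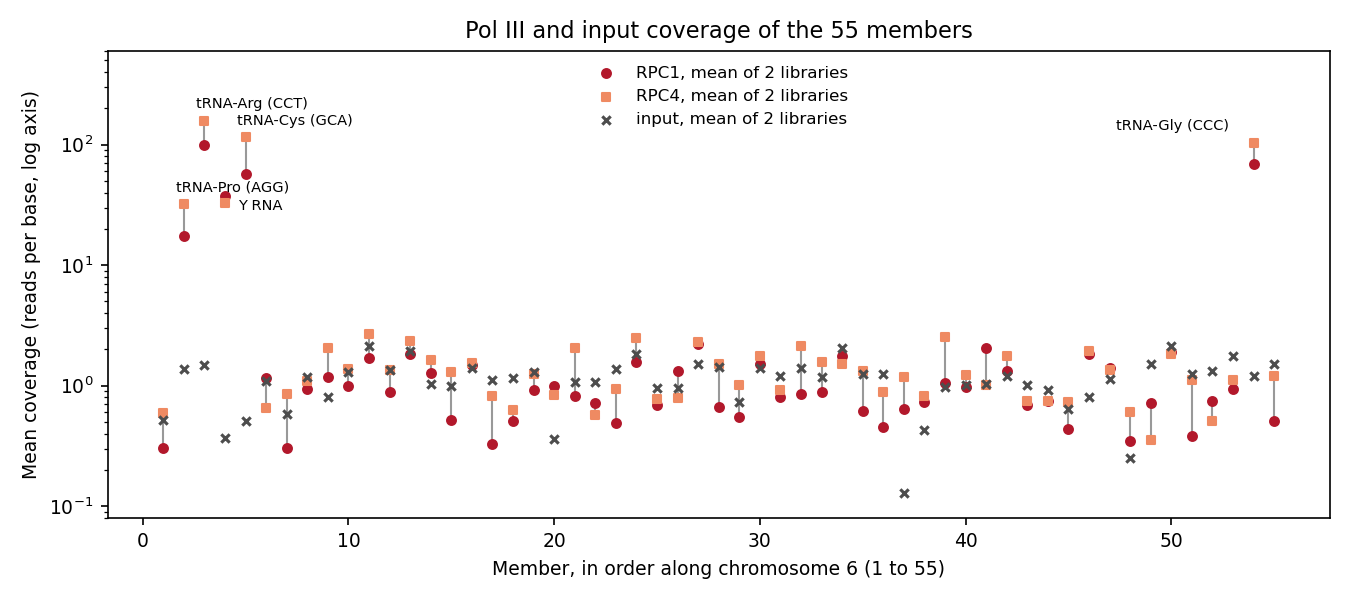
Mean coverage in reads per base (log axis) of the 55 members, in their order along chromosome 6, in RPC1, RPC4 and input libraries (each point the mean of 2 libraries; grey lines join RPC1 and RPC4 of a member). The 5 named members stand above the rest in RPC1 and RPC4 but not in input, and the near-empty members keep to a band around their median of 1.02 reads per base.

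Differences from input were tested with limma on log2(scaled coverage + 0.326), in a fit of all 12 libraries over 478 stretches that passed a filter on low coverage. Each library was scaled to stretches outside chromosome 6 with low Pol III (the anchored scaling). Of the members, 44 entered the test, among them the 5 loaded and 39 of the 50 near-empty ones. All 5 loaded members were above input and 0 members were below, where 72.2% of all stretches tested were above and 0.00% below. Of the near-empty members, 0 differed from input, and 0 did at an unadjusted p under 0.05 in the same limma test. The classes were drawn from the same Pol III values. Pol III calls, medians and p-values by class, here and below, therefore do not test the split. The median log2 difference was -0.28 over the near-empty members tested, 3.51 over all stretches, and 4.82 over the 273 stretches tested outside chromosome 6 with a tRNA gene other than tRNA-Cys, of which 201 were above input. When libraries were divided by the total of their file instead, so that values are shares of the file, 1 member was above input (tRNA-Gly) and 40 were below, against 20.5% above and 48.3% below of all stretches tested.

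The tRNA-Arg (CCT) gene, which decodes arginine, had the highest Pol III coverage (stretch chr6:38483781-38484153). The RPC1 libraries gave 115 and 85.3 reads per base, the RPC4 libraries 144 and 171, and input 1.79 and 1.19. The groups did not overlap, and RPC4 coverage was the higher of the Pol III values before scaling. The mean over the Pol III libraries was 129 ± 36.8 (SD, n = 4, which includes the step between RPC1 and RPC4), and the log2 difference from input was 5.97 (SE 0.54, limma adjusted p = 1.26e-07). The gene lies in an intron of 1110001J03Rik, 429 bp from the start of that gene, the nearest start of a protein-coding gene.

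The tRNA-Gly (CCC) gene (stretch chr6:86353737-86354107) lies between genes, 256 bp from the start of Tia1, which codes for an RNA-binding protein. Its coverage was 78.1 and 59.1 in the RPC1 libraries, 93.6 and 114 in the RPC4 libraries, and 1.01 and 1.38 in input. All Pol III values stood far above input, and the log2 difference was 5.66 (SE 0.35, limma adjusted p = 2.86e-09). It was the member whose call held with every scaling tried, with a log2 difference of 1.01 (adjusted p = 0.0350) when file totals set the scale.

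The loaded tRNA-Cys (GCA) gene (stretch chr6:47928846-47929217) was the sole tRNA-Cys gene of the 48 with high Pol III. Its coverage was 68.9 and 45.1 in the RPC1 libraries, 98.5 and 131 in the RPC4 libraries, and 1.02 and 0 in input. It is listed at 0 in 1 input library, and the Pol III values still lie far from the other. The log2 difference was 6.83 (SE 0.82, limma adjusted p = 2.56e-06). This gene lies between annotated genes, and the nearest start, that of the zinc finger gene Zfp956, is 25607 bp away.

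The Y RNA gene (chr6:47738068-47738179, minus strand, in the stretch chr6:47737918-47738329) had 44.6 and 29.7 reads per base in the RPC1 libraries and 39.8 and 25.1 in the RPC4 libraries, against 0.367 and 0.369 in input. Its RPC1 and RPC4 values overlapped, unlike those of the other loaded members. The log2 difference from input was 5.54 (SE 0.63, limma adjusted p = 1.40e-06). The tRNA-Pro (AGG) gene (stretch chr6:29338674-29339045), 356 bp from the start of the opsin gene Opn1sw, was the lowest of the loaded members. It had 23.1 and 11.8 in the RPC1 libraries, 33.3 and 31.3 in the RPC4 libraries, and 1.43 and 1.30 in input, a log2 difference of 3.64 (SE 0.39, limma adjusted p = 7.97e-07). With file totals its sign turned, to -1.03 (adjusted p = 0.0478), and the calls for tRNA-Arg, tRNA-Cys and the Y RNA gene were lost, with log2 differences of 1.28, 4.06 and 1.36.

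The 50 near-empty members gave values close to input. As deposited, their median was 0.999 and 0.809 reads per base in the RPC1 libraries, 1.07 and 1.26 in the RPC4 libraries, and 1.00 and 1.19 in the input libraries. In 24 of the 50 the mean over the Pol III libraries was above the mean over input. Scaled to the anchor, their mean was 1.05 to 1.21 in the 4 Pol III libraries and 1.34 and 1.39 in input. The depth behind such values is small: the median member held 4.33 to 6.93 reads in a Pol III library and 4.97 and 5.83 in an input library. On data simulated at these depths the test found 0 of 29 stretches with a 2-fold rise over input, 10 of 30 with a 4-fold rise and 30 of 30 with a 16-fold rise, so a small rise at a near-empty member was not detectable.

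Among the near-empty members, a tRNA-Cys copy at chr6:48221775-48222146 had the highest mean Pol III coverage, 2.28 ± 0.900 (SD, n = 4), with 3.12, 1.34, 1.67 and 2.97 in the RPC1 and RPC4 libraries and 1.90 and 1.14 in input. The ranges overlapped, and its log2 difference was 0.29 (SE 0.50, limma adjusted p = 0.656). The next, at chr6:48104563-48104934, had 2.19 ± 0.768 (SD, n = 4) in Pol III and 2.13 ± 0.327 (SD, n = 2) in input, and it also had the highest near-empty RPB2 coverage, 1.43 ± 1.21 (SD, n = 2). At the low end were the tRNA-Val (CAC) gene (stretch chr6:10050221-10050593) at 0.448 ± 0.260 and a tRNA-Cys copy (chr6:48291437-48291808) at 0.474 ± 0.361 (SD, n = 4). The tRNA-Val gene stands alone, 1151940 bp from the nearest start of a protein-coding gene, Nxph1. It is an A and B box gene like the loaded ones, as its sequence shows with the boxes in capitals, but no run of 4 T follows within 40 bases.
tRNA-Val (CAC), chr6:10050371-10050443, plus strand: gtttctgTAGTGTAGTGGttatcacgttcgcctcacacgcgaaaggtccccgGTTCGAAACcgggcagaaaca

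Of the members without an accepted cloverleaf, 2 were near-empty. The sequence at chr6:48266536-48266605 lies among the tRNA-Cys copies, is 70 bases long, forms 14 of the pairs of a cloverleaf where 17 were required, and is 87.5% identical to the loaded tRNA-Cys gene. Its Pol III coverage was 1.54 ± 0.513 (SD, n = 4), against 1.20 ± 0.495 in input (SD, n = 2). The sequence at chr6:135217793-135217866 forms 12 pairs, had 0.850 ± 0.774 (SD, n = 4) in Pol III and 1.52 ± 0.396 in input (SD, n = 2), and lies between genes, 13439 bp from the start of Gsg1.

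RPC1 and RPC4, a large catalytic subunit and a smaller one of the same enzyme, gave the same picture by gene. Against input, limma called 5 members above and 0 below for RPC1 (69.2% and 0.00% of all stretches) and 5 and 0 for RPC4 (70.7% and 0.00%). With file totals the split was 0 above and 37 below for RPC1 (17.6% and 44.1%) and 0 and 36 for RPC4 (16.7% and 43.3%). Between the subunits, 0 members and 0.00% of all stretches differed in either direction, with 0 members and 3 stretches at an unadjusted p under 0.05. The log2 difference, RPC1 minus RPC4, was -0.43 (SE 0.45) for tRNA-Pro, -0.49 (SE 0.95) for tRNA-Cys and 0.73 (SE 0.73) for the Y RNA gene. In a fit of the RPC1 and RPC4 libraries alone 1 member differed, the Y RNA gene, which was higher in RPC1 by a log2 difference of 0.73 (SE 0.21, adjusted p = 0.0140), where 1.05% of all stretches were higher in RPC1 and 6.07% in RPC4.

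Along the gene the loaded members were not alike. Positions are in bp from the first base of the gene, and the summit is the middle of the highest coverage. At tRNA-Arg the 4 Pol III summits lay at 2 to 12.5 bp, and at tRNA-Gly at -6 to 25 bp, near the start of the gene. At tRNA-Cys they lay at 53 to 74.5 bp, toward its end, and coverage after the gene (51.1 to 167 reads per base) was in 4 of 4 libraries above coverage before it (26.7 to 62.1). At the Y RNA gene they lay at 25.5 to 50.5 bp.

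The tRNA-Pro gene was the loaded member at which the subunits had different summits. In the RPC1 libraries they lay upstream, at -72 and -66 bp, and mean coverage was 29.2 and 17.5 before the gene against 19.6 and 9.24 within it. In the RPC4 libraries they lay at 67.5 and 74.5 bp, with 23.8 and 18.2 before the gene against 56.2 and 38.3 within it. Coverage in the gene was thus lower than before it in both RPC1 libraries and higher in both RPC4 libraries, at a depth of few reads. This difference was noticed in the values and was not tested. Averaged over the 47 near-empty tRNA-Cys genes there was no summit on the gene: coverage within the gene was 0.555 to 0.734 of that before it in the Pol III libraries, and 0.596 and 0.577 in input. After the gene, Pol III coverage was lower still, at 0.582 to 1.02 against 0.692 to 1.28 within it. Input was higher after the gene, at 0.903 and 1.13 against 0.803 and 0.909 within it. That difference was not tested.

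**Figure D2:**
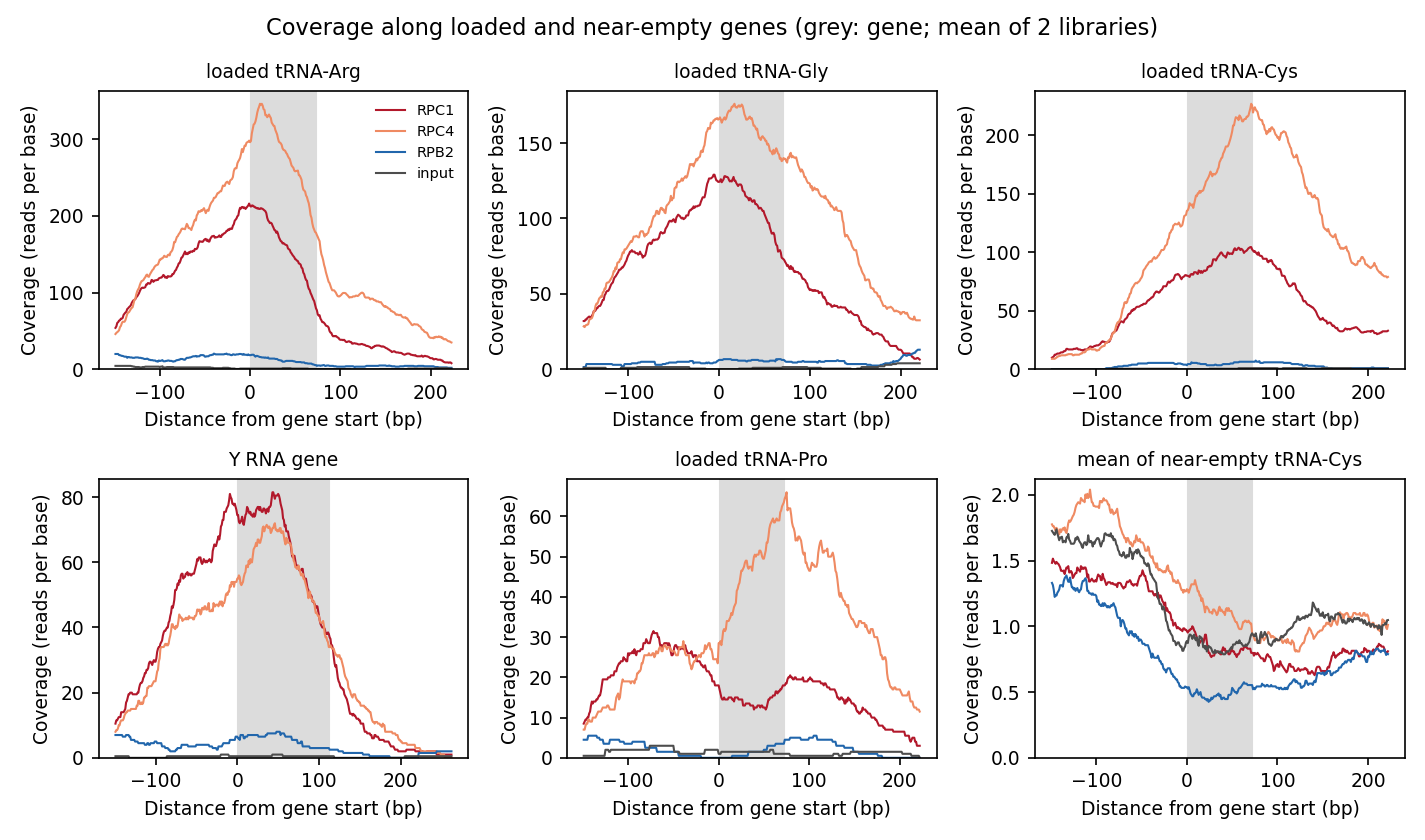
Coverage in reads per base against distance from the gene start in bp for the 5 loaded members and the mean of the 47 near-empty tRNA-Cys genes, with RPC1, RPC4, RPB2 and input as lines (mean of 2 libraries, each panel with its own axis) and the gene in grey. The Pol III lines peak near the start of tRNA-Arg and tRNA-Gly and near the end of tRNA-Cys. For the near-empty genes, mean Pol III and input coverage are both lower within the gene than before it.

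Pol II was above input at some of the loaded members. RPB2 coverage at tRNA-Arg was 14.0 and 6.71 reads per base, at tRNA-Gly 4.29 and 5.55, and at the Y RNA gene 4.30 and 2.73. It was 4.75 and 1.54 at tRNA-Cys and 1.67 and 2.79 at tRNA-Pro, while the highest near-empty values in the 2 libraries were 2.04 and 2.28. In each RPB2 library 4 of the 5 loaded members lay above all near-empty ones, and the exception was tRNA-Pro in the first library and tRNA-Cys in the second. Over all stretches the RPB2 libraries held 14779 and 13849 reads and the Pol III libraries 82276 to 160705. Pol III peaks set the latter totals, so these numbers do not compare depth. Over the 50 near-empty members the RPB2 libraries held 196 and 177 reads, and the Pol III libraries 211 to 345.

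By limma, 3 members were above input for RPB2 and 0 below, where 38.5% of all stretches were above and 0.209% below. They were tRNA-Arg (log2 difference 2.74, SE 0.62, adjusted p = 0.00263), the Y RNA gene (2.74, SE 0.73, adjusted p = 0.00748) and tRNA-Gly (2.04, SE 0.40, adjusted p = 0.00103). Without the first RPB2 library the Y RNA gene was no longer called (2.44, adjusted p = 0.0726). The loaded tRNA-Cys gene just missed the threshold, with 2.51 (SE 0.95, adjusted p = 0.0508). It passed it with coverage as deposited (2.67, adjusted p = 0.00355) and with a doubled pseudocount (2.00, adjusted p = 0.0178). It did not pass it with file totals, and most of the alternatives tried did not call it. tRNA-Pro had 0.78 (SE 0.45, adjusted p = 0.212). With file totals 0 members were above input and 19 below (6.69% and 22.0% of all stretches). Over the 39 near-empty members tested the median was -0.36, with 0 called, and 0 at an unadjusted p under 0.05.

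H3K4-titled signal divided the loaded members (trimethylated H3K4, which the track headers name, is known as a mark of active promoters). It was 7.57 and 12.7 reads per base at tRNA-Arg and 6.31 and 8.03 at tRNA-Gly. It was 0.204 and 0 at tRNA-Cys, 0.212 and 0.930 at tRNA-Pro, and 0.184 and 0.709 at the Y RNA gene. The first pair stood above all near-empty members in both libraries (highest 0.567 and 0.930), and the other three lay within their range. At tRNA-Arg the signal dipped over the gene, to 1.97 and 0.192, from 7.54 and 12.5 before it and 10.3 and 19.1 after it. Pol III load and this signal thus did not go together at tRNA-Cys, which had the third highest Pol III coverage and is listed at 0 in the second H3K4-titled library.

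Of the members, 4 were above input by limma and 10 below, against 64.9% and 5.44% of all stretches. Those above were tRNA-Arg (log2 difference 5.30, SE 0.62, adjusted p = 2.67e-06), tRNA-Gly (5.10, SE 0.40, adjusted p = 4.99e-08), the Y RNA gene (2.12, SE 0.73, adjusted p = 0.0180) and a near-empty tRNA-Cys copy at chr6:48218307-48218678 (1.47, SE 0.58, adjusted p = 0.0360). That copy had 0.356 and 0.560 reads per base in the H3K4-titled libraries and 0.876 and 1.02 in input, so it was above input only after scaling, in libraries where 25 and 14 of the 50 near-empty members are listed at 0. The call for the Y RNA gene was lost without the second H3K4-titled library or without either input library (adjusted p = 0.0953, 0.0616 and 0.0754). The highest near-empty mean, 0.500 ± 0.491 (SD, n = 2), was that of the sequence at chr6:48266536-48266605 and was not above input. The 10 below input were near-empty tRNA-Cys copies, with log2 differences from -2.56 to -2.04. Each had at most 0.0161 reads per base in either H3K4-titled library. The median member held 0.0789 and 1 reads in those libraries, so these calls lie at the floor. A loss of signal there cannot be told from a lack of reads. With file totals 0 members were above input and 38 below (13.4% and 53.1% of all stretches). The number below was 5 without the second input library, 16 without the second H3K4-titled library, 4 over the central 150 bp and 33 with coverage as deposited. The number above was 2 without either input library. No share of all stretches stands beside the counts under these last settings, so they show only how the calls move.

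H3K36-titled signal did not tell loaded from near-empty members. Coverage of the loaded members was 0 to 0.884 and 0 to 0.581 in the 2 libraries, inside the range of the near-empty ones, 0 to 1.96 and 0 to 0.984. By limma 0 members were above input and 0 below, where 3.35% and 10.9% of all stretches were. An unadjusted p under 0.05 was found for 4 of the 44 members tested, against 133 of all 478 stretches tested. With file totals 1 was above and 0 below (3.77% and 20.7%). These libraries held 105 and 90.9 reads over all 55 members together, and the H3K4-titled ones 99.1 and 162.

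**Figure D3:**
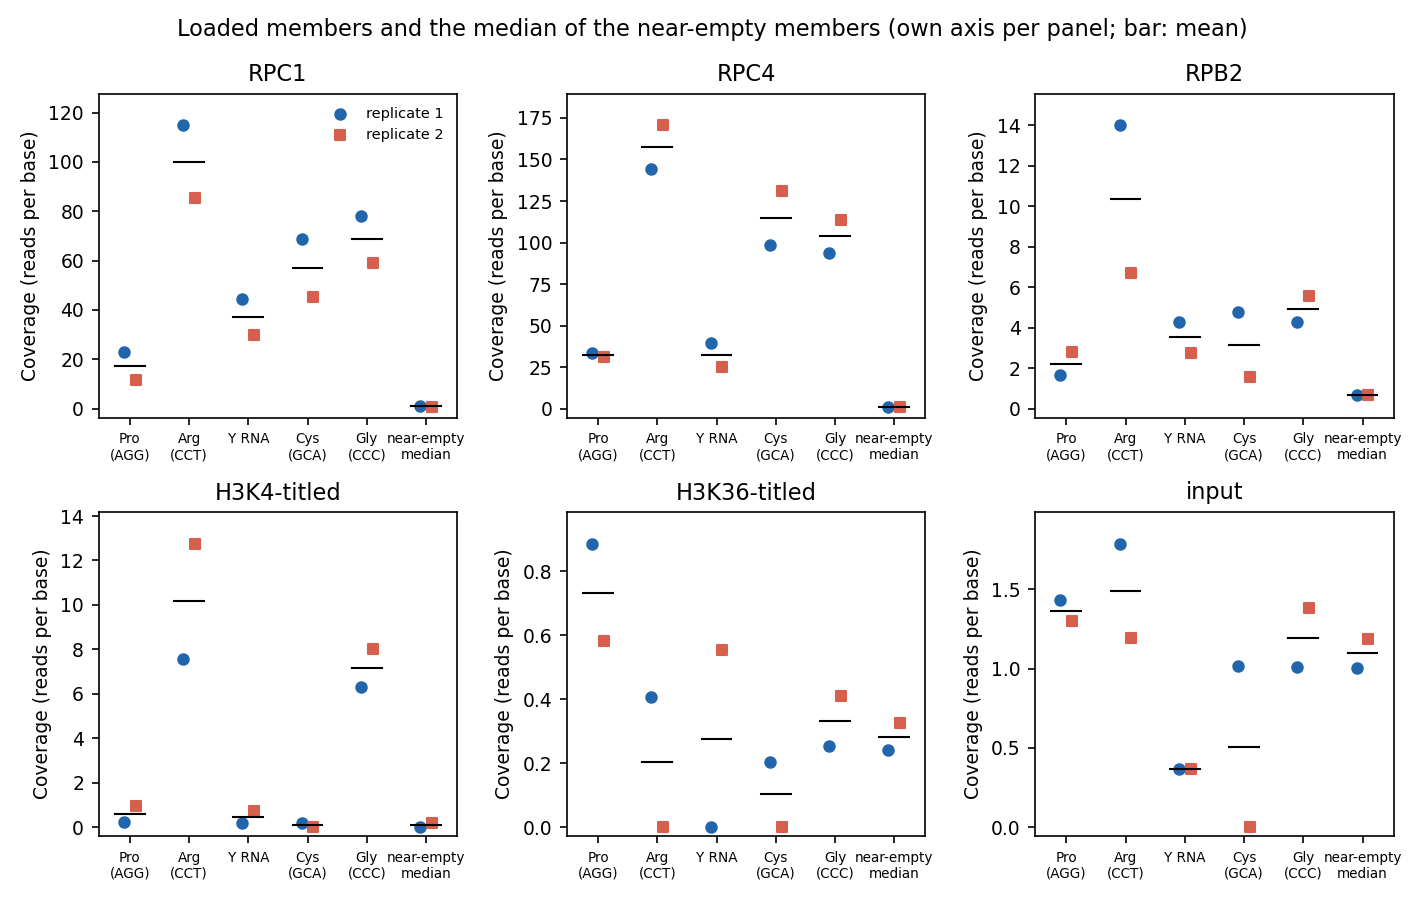
Coverage in reads per base of the 5 loaded members and the median of the 50 near-empty members in each of the 6 groups (circle, replicate 1; square, replicate 2; bar, their mean; every panel has its own axis from 0). All 5 stand above the near-empty median in RPC1 and RPC4, while tRNA-Arg and tRNA-Gly alone stand high in the H3K4-titled libraries, and in the H3K36-titled and input libraries none stands above all near-empty members.

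The near-empty tRNA-Cys genes lie in a cluster. All 47, and the sequence without an accepted cloverleaf at chr6:48266536-48266605, fall in introns of the long non-coding RNA gene Gm16630 (chr6:48080917-48345407, minus strand). Their genes span 229.7 kb, from 48083936 to 48313602, with a median spacing of 3468 bp between neighbours and a range of 974 to 22217 bp. The host's strand is not shared by all, since 19 tRNA-Cys genes are on the plus strand and 28 on the minus strand. The loaded tRNA-Cys gene is not in the cluster but 154.9 kb before it. Of the loaded members, 3 of 5 lay within 1 kb of the start of a protein-coding gene, and 0 of the 50 near-empty ones did. Of those 50, 48 lie inside Gm16630, at distances of 32.0 to 151 kb, so the count is largely of 1 place. Distances were not measured for stretches outside the set, so no share over all stretches can stand beside these counts.

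The loaded tRNA-Cys gene and the copies of the cluster differ by few bases. Positions are counted from 1 at the 5′ end of the 72-base gene, with the base of the loaded gene first. In the loaded gene the A box is at positions 8 to 18, the anticodon at 33 to 35 and the B box at 52 to 60. The 47 near-empty genes had 1 to 8 substitutions (median 3) and 88.9% to 98.6% identity, and 0 were identical to it. T16G was found in 45, T16A in the other 2, and C50T with G62A in 45, so that 43 held T16G, C50T and G62A together. Position 16 is in the D loop of the tRNA and within the A box, at a place where the A box consensus takes any base. Positions 50 and 62 are partners in the T stem, and 45 of the 47 copies had both changed and 2 had neither changed, so a C with G pair became a T with A pair.

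The near-empty copies covered a narrow range of Pol III coverage. Of the 47, 28 share 1 sequence, with T16G, C50T and G62A alone, and their coverage ran from 0.533 to 2.28 (median 1.10). The copy that carries only T16G had 0.984 and 0.871 in the RPC1 libraries and 1.71 and 0.788 in the RPC4 libraries, mean 1.09 ± 0.423 (SD, n = 4), against 1.57 and 1.04 in input. It overlapped with input (log2 difference -0.39, SE 0.87, limma adjusted p = 0.742), while the loaded gene, which differs from it by that base within the gene, had 85.8 ± 37.1 (SD, n = 4). The flanks differ throughout: in the 150 bases before the gene the near-empty copies were at a median of 47.5% identity with the loaded gene, and in the 150 after it at 43.9%. Among themselves, over 1081 pairs, the medians were 53.4% and 50.0%, with some pairs at 100%.

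Outside chromosome 6 the series holds 8 tRNA-Cys stretches, with Pol III coverage from 1.03 to 166 reads per base. Of 4 genes in all with the sequence of the loaded gene, which was itself picked for its Pol III, 4 were loaded. They had 71.9, 162 and 166 reads per base on chromosome 11 beside the 85.8 on chromosome 6. A chromosome 11 gene with C50T alone had 31.5 ± 6.69 (SD, n = 4), and one with T16G and C50T had 6.30 ± 3.22 (SD, n = 4). The latter was above input (log2 difference 1.86, SE 0.44, limma adjusted p = 0.00135), with coverage between the thresholds for near-empty and loaded. The part of T16G in Pol III load was not tested. Of 2 genes with C50T and G62A, the gene at chr17:71948461-71948832 had 24.1 ± 9.23 and the gene at chr9:104306236-104306607 had 1.03 ± 0.591 (SD, n = 4). Those 2 share every base of the gene and their Pol III values do not overlap, at 13.1 to 33.8 and 0.613 to 1.87 across the libraries. A chromosome 9 gene with T16G, C50T and G62A had 1.15 ± 0.442 (SD, n = 4), like its counterparts in the cluster.

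By number of substitutions, then, genes of the set and outside it with 0 were loaded in 4 of 4 cases, with 1 in 1 of 2, and with 2 in 1 of 3. With 3 there were 30 genes and 0 loaded, and with 4 to 8 a further 17 and 0 loaded. The gene counted from was picked as the tRNA-Cys member with the highest Pol III, so its own place among the 4 was fixed in advance. Of the 30 genes with 3, 29 are copies of the cluster, as are all 17 with 4 to 8. Those copies lie in 1 place and are not separate cases. By limma 6 of the 8 tRNA-Cys stretches outside chromosome 6 were above input for Pol III, with a median log2 difference of 4.64. That is near the share among all stretches tested, 72.2%, and among other tRNA stretches outside chromosome 6, 201 of 273. H3K4-titled signal varied among these loaded genes too, from 0.0504 reads per base at the gene with 71.9 in Pol III to 23.7 at the chromosome 17 gene and 28.1 and 30.3 at the 2 highest. Between the loaded gene and the copies of the cluster, gene sequence, flanks and position all differ, and their separate parts in Pol III load were not tested.

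**Figure D4:**
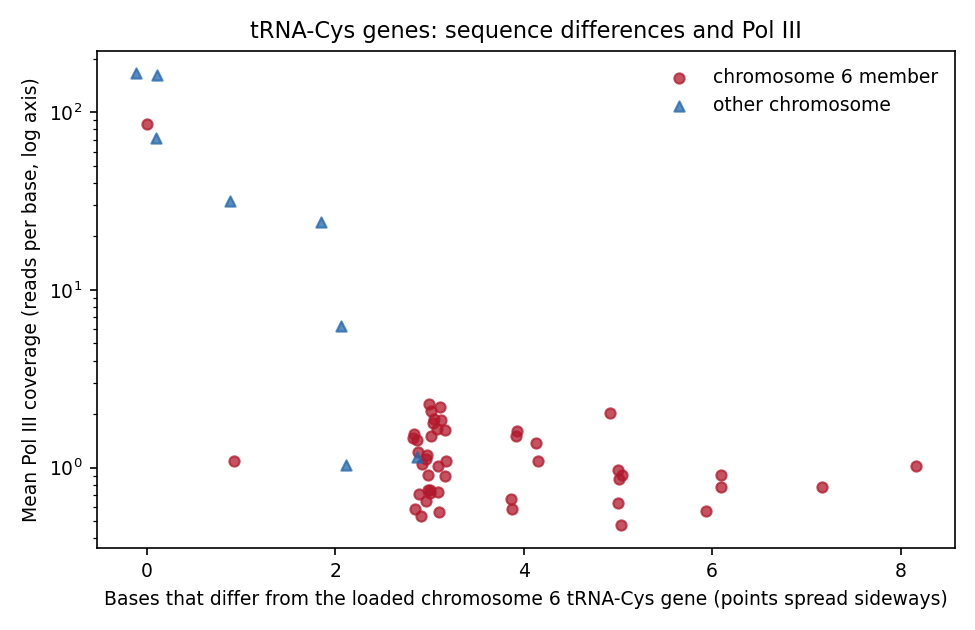
Mean Pol III coverage in reads per base (log axis) against the number of bases that differ from the loaded chromosome 6 tRNA-Cys gene, for the 48 tRNA-Cys members and the 8 tRNA-Cys genes on other chromosomes (1 point per gene, spread sideways within a number). The 4 genes with 0 differences, among them the gene counted from, lie between 71.9 and 166. The 47 with 3 or more, nearly all of them copies of the cluster, lie under 3.

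The promoter boxes were found in both classes. The A box consensus was found in 4 of 4 loaded tRNA genes and in 46 of 48 near-empty ones, and in 93.7% of 316 other tRNA genes outside chromosome 6. For the B box, the motif GTTCGANNC was in 2 of the loaded genes (tRNA-Arg and tRNA-Gly) and 2 of the near-empty ones. The loaded tRNA-Cys and tRNA-Pro genes have A where it asks for G, and with the motif GTTCNANNC, which contains the former and was chosen after the sequences were seen, the counts were 4 of 4 and 46 of 48, against 88.0% of the other tRNA genes. Searched on both strands of whole stretches of member length, GTTCGANNC was in 4 of 55 members and 50.9% of all 446 and GTTCNANNC in 53 and 80.3%. The A box consensus was in 52 members and 94.2% of all 446, and TTTT in 48 and 98.2%.

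In 4 near-empty tRNA-Cys copies a box no longer matched its motif, and these are printed as the exceptions to those counts, with the bases that differ from the loaded gene in capitals. The first pair lacks the A box consensus (G10A and T8A) and the second pair lacks the motif GTTCNANNC (G52T and G52A).
copy with G10A, chr6:48089509-48089580, minus strand: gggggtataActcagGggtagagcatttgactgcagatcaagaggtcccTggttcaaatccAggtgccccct
copy with T8A, chr6:48136317-48136388, plus strand: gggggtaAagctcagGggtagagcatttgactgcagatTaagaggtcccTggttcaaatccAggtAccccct
copy with G52T, chr6:48155067-48155138, plus strand: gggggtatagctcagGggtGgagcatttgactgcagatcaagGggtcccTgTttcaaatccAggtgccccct
copy with G52A, chr6:48255463-48255534, minus strand: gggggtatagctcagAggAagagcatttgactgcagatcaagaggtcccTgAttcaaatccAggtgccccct
In that order Pol III coverage was 0.583, 0.913, 0.569 and 0.904, below the near-empty median of 1.02 in 4 of 4 and above the lowest near-empty value of 0.448. Input coverage was 0.578, 0.984, 1.12 and 0.130. The G10A copy did not pass the filter. For T8A, G52T and G52A the log2 difference from input was -0.28, -0.84 and 1.27 (limma adjusted p = 0.817, 0.406 and 0.137). The part of the altered boxes in Pol III load was not tested. Changes other than T16G lie within a box in 8 of the 47 copies, these 4 among them.

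A run of 4 or more T within 40 bases after the gene, where Pol III can stop, followed 4 of 4 loaded tRNA genes and 40 of 48 near-empty ones, and 85.1% of the other tRNA genes. The run is in capitals in the 40 bases that follow a loaded gene with an early run, the loaded tRNA-Cys gene and the near-empty copy with 1 difference.
after tRNA-Gly (CCC): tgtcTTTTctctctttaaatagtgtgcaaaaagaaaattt
after the loaded tRNA-Cys (GCA): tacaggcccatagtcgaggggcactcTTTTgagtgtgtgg
after the near-empty copy with 1 difference: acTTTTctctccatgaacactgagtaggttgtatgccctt
The run began at base 27 after the loaded tRNA-Cys gene, after the 3 to 21 (median 13) of the 40 near-empty copies with a run in those 40 bases, and at base 5 to 10 after the other loaded tRNA genes. In 4 of 4 Pol III libraries the loaded tRNA-Cys gene also had the highest coverage of the loaded members in the 150 bp after the gene, and a relation with the run was not tested. In the 150-base flanks, CpG pairs numbered 3 to 7 (median 5) beside loaded tRNA genes and 0 to 7 (median 1) beside near-empty ones, against a median of 6 at the other tRNA genes. The near-empty gene with 7 was tRNA-Val, and the tRNA-Cys copies had 0 to 4. A full cloverleaf of 21 pairs was found in 2 of 4 loaded genes and 36 of 48 near-empty ones.

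Repeated sequence limits how near-empty copies can be told apart. Of the 76-base words in a stretch, the length of a read, 0% to 2.03% of those in loaded members occur elsewhere in the genome, and 0% to 79.5% (median 18.2%) of those in near-empty members. Coverage took fractional values, as reads divided among places would give, at a median of 15.3% of the bases of near-empty members and 0% of those of loaded ones. The 11 near-empty members in which every 76-base word is unique had Pol III coverage of 0.448 to 1.43 (median 0.865). Their input coverage was 0.358 to 1.31 (median 1.08). Among them, the copy at chr6:48228641-48229012 still took fractional values at 1.10% of its bases. The aligner is not known, so unique words do not show that reads were placed. The part of repeated sequence in the low values was not tested. Across the 50 near-empty members, which share libraries and many sequences, Pol III coverage and input coverage had a Spearman's rho of 0.42, and each had 0.32 and 0.39 with the share of repeated words. Replicates ranked these members with a rho of 0.54 in RPC1, 0.26 in RPC4 and 0.33 in input, against 0.98 in RPC1, 0.98 in RPC4 and 0.41 in input over all stretches.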

How the data were processed

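Coverage is the signal deposited by the authors: reads over each base, with no sign of scaling, since a lone read adds 1.0 over 76 bp. The genome build is mm9, per the submitters' processing notes. No source used here gives the aligner or the treatment of repeated reads. Abutting lines were joined into stretches, and each value is the mean per base of a stretch. Stretches held 1273 to 160705 reads per library, as coverage divided by 76. A tRNA gene was accepted if a cloverleaf of at least 17 pairs ended exactly 150 bp from both ends of the stretch, and other genes came from GENCODE vM1.

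Each library was divided by its 10% trimmed mean over the 25% of stretches outside chromosome 6 with the lowest Pol III coverage, since file totals are set by the Pol III peaks themselves. This takes those stretches as unenriched in every library. limma 3.58.1 in R 4.3.3 was fitted to log2(scaled coverage + 0.326), which shrinks differences of low stretches, with a mean-variance trend, a coefficient for each group and all 12 libraries, which leaves 6 residual degrees of freedom. Stretches with a mean coverage under 0.545 were left out, tests were two-sided, and p-values were adjusted by Benjamini-Hochberg over 478 stretches at 0.05. The test was checked on simulated data.

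The members, lists, anchor and thresholds were chosen with earlier results of these data known. Members named are the loaded ones, those above input for RPB2 or H3K4-titled signal, the 2 highest and 2 lowest near-empty ones in Pol III, the highest near-empty ones in RPB2 and H3K4-titled signal, and those without a tRNA-Cys gene. The copies with 1 difference, with the commonest sequence and with altered boxes were added after their sequences were seen. Alternatives covered scaling, pseudocount, filter, samples, block, weights, window, merging of neighbours and leaving out each library.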

Additional observations from a re-analysis of the deposited data

How the results depend on the processing

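The 5 loaded members stayed the same in number under each threshold, window and left-out library tried, and 5 were above input for Pol III, RPC1 and RPC4 without each library in turn. Scaling mattered most. With file totals the members above and below input were 1 and 40 for Pol III, 0 and 37 for RPC1, 0 and 36 for RPC4, 0 and 19 for RPB2, and 0 and 38 for H3K4-titled, and 1 was above for H3K36-titled. Median-of-ratios scaling gave 2 and 35, 2 and 29, 2 and 30, 0 and 3, and 1 and 34 in that order, and 3 above for H3K36-titled. For this and the settings below, no share of all stretches stands beside the counts. They show only how the members' calls move with the setting, and not how members compare with other stretches. Coverage as deposited gave 1, 2 and 1 below for Pol III, RPC1 and RPC4, 2 above and 33 below for H3K4-titled, and 23 below for H3K36-titled. A fit of only the groups compared gave 1 below for Pol III, 2 below for RPC4, and 1 higher in RPC1 than in RPC4. Array weights gave 1 below for RPC4 and 6 below for H3K4-titled, and the central 150 bp gave 4 below for H3K4-titled. Leaving out a library gave 2 to 4 above and 5 to 16 below for H3K4-titled (lowest without the second input library), 2 to 4 above for RPB2, and 0 to 1 above and 0 to 3 below for H3K36-titled. Signs turned for tRNA-Pro in H3K4-titled (-3.77 with file totals, -2.27 with median of ratios, -1.24 as deposited, -0.28 in the central 150 bp), in RPB2 (-1.24 and -0.38 with the first 2 of these) and in Pol III (-1.03 with file totals). They turned for tRNA-Cys in H3K4-titled (-1.97, -1.16 and -0.83 with those 3 scalings, -1.17 without the first H3K4-titled library against 1.97 without the second, -0.74 without the second input library) and for the Y RNA gene in H3K4-titled (-2.17 and -0.75 with the first 2). Of 15 alternatives, 7 called tRNA-Cys above input for RPB2, with log2 differences of 2.00 to 3.65, and adjusted p ran from 4.61e-05 to 0.465 over all. The causes were not tested. The loaded share of Pol III coverage was 86.3%, and 91.1% in the central 150 bp. Words of 36 bases raised the median repeated share of near-empty members to 47.9%, and GTTCNANNC in place of GTTCGANNC raised the near-empty tRNA-Cys genes with it from 1 to 45. Replicate numbers did not pair the libraries (correlations of -0.13 to 0.11 over 15 pairs of groups). A replicate block called tRNA-Cys above input for RPB2 (2.51, adjusted p = 0.00888), so 4 members were, and changed no other call named here. Depth limits what can be told of near-empty members most in the H3K4-titled libraries, which held 28.1 and 51.7 reads over all 50, and in the H3K36-titled ones, with 96.6 and 83.1.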
